A study of Mus musculus with 10 samples.

Results

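Heat shock proteins and their partner chaperones were examined as 88 genes among the 24608 gene symbols measured in mouse muscle stem cells (MuSCs) with and without Trpm7, a channel that carries Mg2+ into the cell. The members were taken by symbol and not by their values. Earlier results of these data were known when the members and the gene lists used below were chosen. The members were 29 genes of the HSP families (HSP70 and HSP110, HSP90, the small HSPs and the mitochondrial pair Hspd1 and Hspe1), 41 DNAJ genes, 10 genes named after the chaperonin CCT, and 8 HSF and BAG genes, with 8 pseudogene symbols left out. Control mice were Trpm7+/+; Pax7CreERT2/+; Rosa26YFP and Trpm7 cKO mice were Trpm7flox/flox; Pax7CreERT2/+; Rosa26YFP, all adults of the C57BL6 background aged 7 to 20 weeks and of both sexes. The Cre recombinase is driven from the Pax7 gene, so recombination starts in Pax7-expressing cells, and both genotypes carried it, received tamoxifen (TMX) on 5 days and had their muscle injured with cardiotoxin (CTX). YFP-positive MuSCs were sorted 3 days after injury, 3000 cells per library, and 5 control and 5 Trpm7 cKO libraries were read at the 3′ end of transcripts (CEL-Seq2), where each molecule carries a unique molecular identifier (UMI) and is counted 1 time. The comparison asks how the loss of Trpm7 alters the RNA of activated MuSCs 3 days after injury, and it is followed here for the chaperones alone. The labels of Trpm7 cKO libraries 4 and 5 share a number whose meaning is not stated, and each was left out in turn.

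Chaperones keep other proteins soluble while they fold. HSP70 proteins bind exposed stretches of a client, DNAJ (J-domain) proteins bring the client and start ATP hydrolysis, and nucleotide exchange factors of the HSP110 and BAG groups release it. HSP90 finishes the folding of kinases and receptors, and CCT (also TRiC) is a double ring of different subunits that folds actin and tubulin. HSF1 is the factor that drives heat shock genes from heat shock elements (HSEs), inverted repeats of GAA, while chaperones of the endoplasmic reticulum (ER) are driven through the ER stress response element (ERSE), a CCAAT box 9 bases before a CCACG. MuSCs raise protein synthesis when they leave quiescence, which adds new chains to be folded.

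The start sites of some members hold these elements. RefSeq promoter windows of GRCm38.p6, from 250 bases before to 50 bases after each annotated start, were matched by symbol for 71 of the 88 members, and 51 of these passed the filter on low counts described below. Members without a matched window, among them Hsp90aa1, Hsp90ab1, Hspa8 and Hspa9, were not searched. The HSE was searched as GAANNTTCNNGAA and TTCNNGAANNTTC on both strands, with no mismatch allowed. It occurred in 4 of the 51 tested members (7.84%), in 0.589% of all tested genes with a window and in 0.662% of all genes with a window. Of the 15 tested HSP genes with a window, 3 had a match, while Hspa1a and Hspa1b were searched and had none. A window without an exact match can still hold elements that differ from these letters. The 4 members with a match were Hspe1, Hspd1, Hsph1 and Dnajb6. They are shown here because they are taken up again beside their counts, with the GAA and TTC units in capitals.
Hspe1, chr1:55088054-55088081, plus strand: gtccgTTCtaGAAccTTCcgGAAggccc
Hsph1, chr5:149636283-149636305, minus strand: gcagaTTCtgGAAagTTCtcctc
Dnajb6, chr5:29735847-29735869, plus strand: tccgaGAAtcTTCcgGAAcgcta
Hspd1 and Hspe1 lie head to head on chromosome 1, and the first of these sequences holds the HSE of both genes. It lies 94 to 67 bases before the Hspe1 start and, read on the other strand, 149 to 122 bases before an annotated Hspd1 start. The sequence printed for Hsph1 lies 11 to 33 bases after an annotated start, and it begins 32 bases after another annotated start. These distances include the 5 flanking bases printed on each side of a match.

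The ERSE was searched as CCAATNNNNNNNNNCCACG on both strands and occurred in 3 of the 51 tested members (5.88%), in 0.18% of all tested genes with a window and in 0.137% of all genes with a window. These 3 encode ER proteins, with the CCAAT and CCACG parts, or their reverse complements, in capitals.
Hspa5, chr2:34772020-34772048, plus strand: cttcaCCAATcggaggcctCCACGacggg
Hsp90b1, first match, chr10:86705633-86705661, minus strand: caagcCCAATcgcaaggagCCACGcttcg
Hsp90b1, second match, chr10:86705528-86705556, minus strand: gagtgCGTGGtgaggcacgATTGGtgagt
Dnajc3, chr14:118937822-118937850, plus strand: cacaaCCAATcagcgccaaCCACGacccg
No HSE or ERSE letters were found in the windows of the 7 CCT genes that had one. A match is a description of these letters, and no binding was measured.

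Control libraries held 914361 to 1097709 counts (median 995138) and Trpm7 cKO libraries 205986 to 581121 (median 524959), with no overlap, and genotype and depth thus cannot be told apart. Markers of the sorted cells were present in both genotypes: Pax7, the factor that marks MuSCs, stood at 166 to 259 CPM (counts scaled to library size by TMM) in control and 265 to 557 CPM in Trpm7 cKO libraries, and Myod1, the factor of activated and committed cells, at 551 to 827 and 132 to 235 CPM. Of 19 listed MuSC identity genes 17 were tested. In Trpm7 cKO 10 were higher, Pax7 among them, 3 were lower (Met, Itga7 and Itgb1) and 4 did not pass. Their median log2 fold change was 0.72. The position of the deleted part of Trpm7 is not given in the sources used here, so its 3′-end counts were not taken as a check of the genotype (66.6 to 90.1 CPM in control, 46.4 to 101 CPM in Trpm7 cKO). Markers of other cells moved with genotype. All 26 tested leukocyte markers of 30 listed were higher in Trpm7 cKO, with a summed level of 497 to 828 CPM in control and 1693 to 7353 CPM in Trpm7 cKO, and none was at 0 throughout a genotype. Of 12 endothelial and mesenchymal markers, all 6 tested were higher (summed level 180 to 324 against 782 to 1937 CPM). All 11 immediate early genes, which respond to cell handling and to growth signals, were higher as well (4657 to 6543 against 10891 to 19888 CPM). The part of depth, of these other cells and of the immediate early response in the results on chaperones was not tested, beyond the alternatives named below. In sorted but bulk libraries, fewer cells of a type and less RNA per cell cannot be told apart.

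Of the 88 members, 64 passed the filter on low counts and were tested: 20 HSP, 28 DNAJ, 8 CCT and all 8 HSF and BAG genes. The other 24 stayed low: 2 (Hspa1l and Dnajb7) had 0 counts in every library, 10 in all had at most 3 counts in any library, and the highest single count was 15, for Hspa2 in Trpm7 cKO library 1. A gene was called when the adjusted p of the edgeR quasi-likelihood test, after Benjamini-Hochberg adjustment over 7753 genes, was below 0.05. By this rule Trpm7 cKO libraries were lower in 24.1% and higher in 24.6% of all tested genes. Among the 64 chaperone genes 24 (37.5%) were lower, 4 (6.25%) were higher and 36 did not pass, and their median log2 fold change was -0.28, against -0.0060 over all tested genes. By family, the lower calls were 12 of 20 HSP genes (60%), 6 of 8 CCT genes (75%), 4 of 28 DNAJ genes (14.3%) and 2 of 8 HSF and BAG genes (25%). The higher calls were 2 DNAJ genes (7.14%) and 2 BAG genes (25%). With the study's added threshold of 1.5 on the log2 fold change, which 3.53% of all tested genes passed downward and 8.49% upward, 3 members remained lower (Hspb8, Hspe1 and Hsph1) and 0 were higher. CPM did not overlap between the genotypes for 34.5% of all tested genes, and for 20 of the 64 members, of which 18 were lower and 2 were higher. When the average log2 CPM of the leukocyte list was added to the fit as a covariate, which itself did not overlap between the genotypes, 0 members were called in any family and 563 of all genes were. In that fit 23 of the 28 called members kept their direction, 10 of them with a fold at least as large. Over the 28, of which 24 were lower and 4 higher, the median log2 fold change was -0.72 in place of -0.75. By family it was -0.91 in place of -0.70 (HSP), -0.74 in place of -0.92 (CCT) and -0.40 in place of -0.58 (DNAJ). For HSF and BAG genes, with 2 calls each way, it was 0.24 in place of 0.022. Where calls went in both directions, a median does not give the size of single changes. The median SE over the 28 was 0.482 in place of 0.183. Why the calls were lost was not tested. With every library thinned to the smallest total, 3901 genes could be tested, of which 892 were lower and 925 higher. At that depth 6 of 18 HSP, 6 of 8 CCT, 2 of 19 DNAJ and 0 of 3 HSF and BAG genes tested were lower. Without the filter on low counts 8 of 40 DNAJ genes were lower, beside 2635 of all 21914 genes tested that way.

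**Figure D1:**
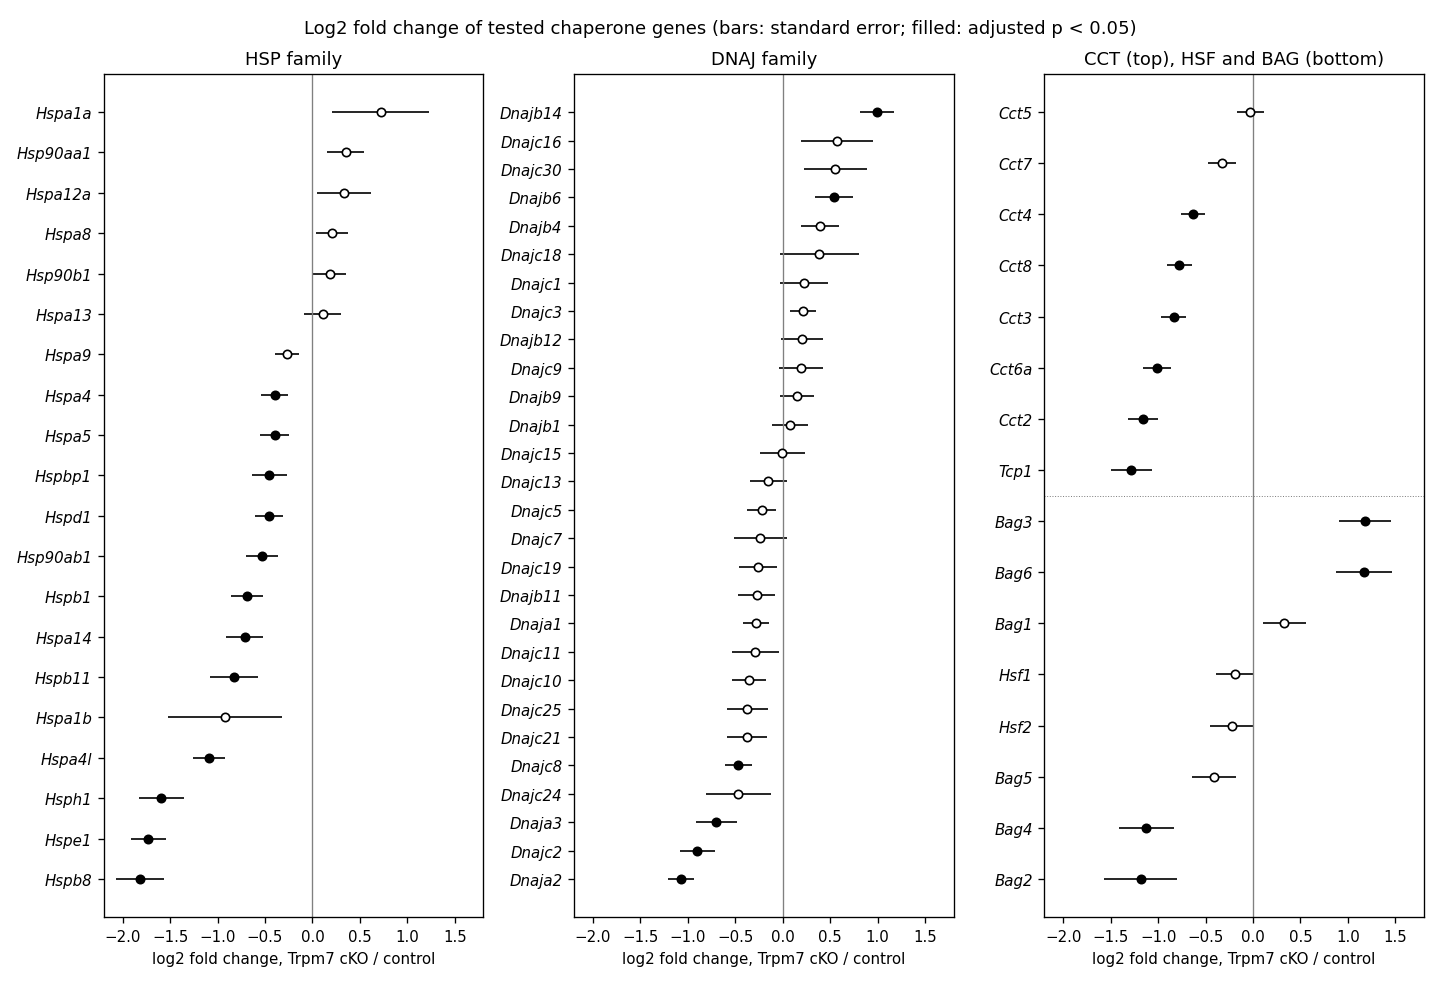
Log2 fold change (Trpm7 cKO over control) of the 64 tested members, 1 point per gene with its standard error, filled where the adjusted p is below 0.05. The left panel holds the HSP family, the middle panel the DNAJ family, and the right panel the CCT genes above and the HSF and BAG genes below. The 8 CCT genes lie below 0, while the DNAJ genes spread from -1.07 to 0.99.

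CCT is assembled from 8 kinds of subunit, and the genes of all 8 were tested. Of these, 6 were lower in Trpm7 cKO and 2 did not pass, and the median log2 fold change was -0.81. The level of Cct2, the beta subunit, was 602, 505, 580, 657 and 555 CPM in control libraries 1 to 5 and 307, 283, 212, 303 and 160 CPM in Trpm7 cKO libraries 1 to 5. Every Trpm7 cKO library lay below every control library, the lowest being library 5 (log2 fold change -1.16, SE 0.161, adjusted p = 7.46e-06). Cct6a, the zeta subunit, stood at 794, 718, 862, 857 and 822 CPM in control and at 425, 447, 376, 467 and 265 CPM in Trpm7 cKO libraries. The groups were again separate, with the same library lowest (log2 fold change -1.01, SE 0.148, adjusted p = 1.30e-05). Tcp1, the alpha subunit and the one least counted, had 116, 110, 93.3, 132 and 68.3 CPM in control and 31.4, 51.5, 36.5, 53.0 and 33.1 CPM in Trpm7 cKO libraries (log2 fold change -1.28, SE 0.215, adjusted p = 6.03e-05). Its 3′ end faces that of Acat3 on the other strand, and the strand setting of the counting is not given in the sources used here, so reads of the 2 genes may not be told apart.

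The gamma, theta and delta subunits fell by less. Cct3 (gamma) was at 413, 404, 352, 351 and 357 CPM in control and 192, 232, 208, 227 and 182 CPM in Trpm7 cKO libraries (log2 fold change -0.84, SE 0.132, adjusted p = 3.24e-05). Cct8 (theta) was at 691, 667, 693, 675 and 659 CPM in control and 375, 370, 322, 452 and 458 CPM in Trpm7 cKO libraries (log2 fold change -0.78, SE 0.132, adjusted p = 6.94e-05). Cct4 (delta) was at 879, 729, 858, 839 and 766 CPM in control and 564, 484, 512, 595 and 464 CPM in Trpm7 cKO libraries (log2 fold change -0.63, SE 0.129, adjusted p = 4.39e-04). In all 3 the genotypes were separate, and the control values of Cct8 lay closest together. Cct8 also has a gene on the opposite strand at its 3′ end (Usp16).

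The remaining 2 subunits did not pass. Cct7 (eta) was at 399, 399, 330, 344 and 368 CPM in control and 218, 271, 380, 303 and 315 CPM in Trpm7 cKO libraries. Trpm7 cKO library 3 lay among the controls (log2 fold change -0.32, SE 0.148, adjusted p = 0.0782), and without it the value was -0.43 with an adjusted p of 0.0216. Cct5 (epsilon) was at 177, 163, 143, 163 and 160 CPM in control and 139, 166, 186, 138 and 171 CPM in Trpm7 cKO libraries. The groups overlapped over nearly their whole range (log2 fold change -0.031, SE 0.142, adjusted p = 0.878), and its sign turned with the scaling by total counts.

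**Figure D2:**
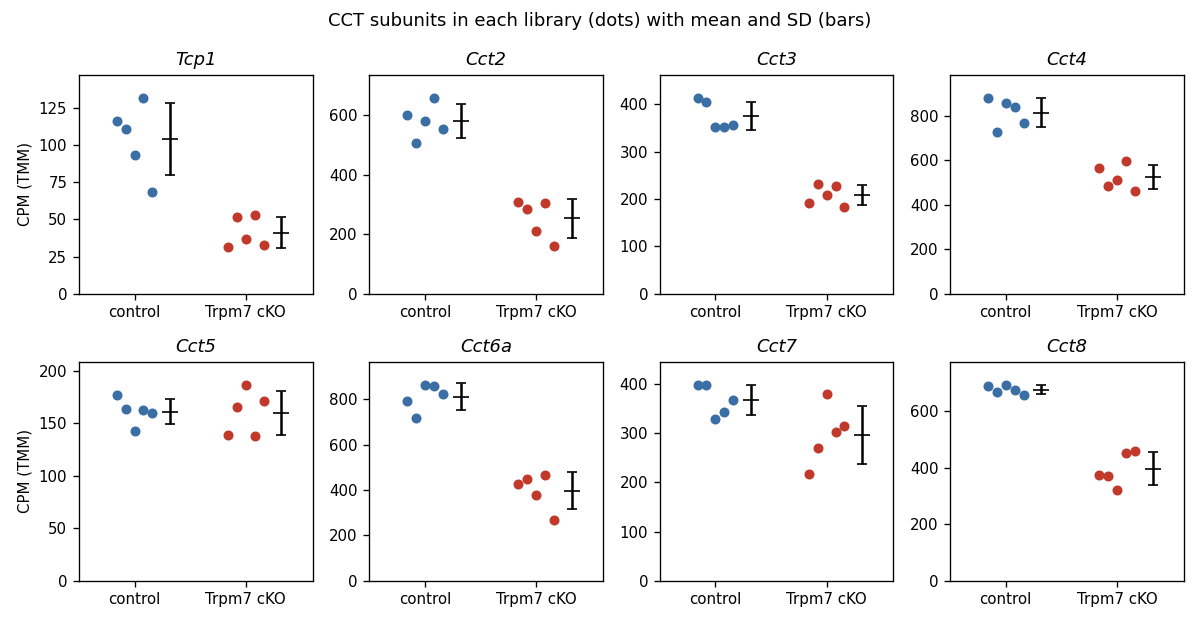
Level of the 8 CCT subunit genes in CPM after TMM scaling, 1 dot per library, control in blue and Trpm7 cKO in red, with the mean and SD of 5 libraries as bars. The Trpm7 cKO libraries lie below all controls for Tcp1, Cct2, Cct3, Cct4, Cct6a and Cct8, and among them for Cct5 and, in 1 library, Cct7.

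The share of each subunit in the CCT counts of a library does not depend on scaling between libraries. These shares carry no test. As a description chosen after the values were seen, Cct5 made up 3.65% to 4.42% of the summed CCT counts of a control library and 5.42% to 8.36% of those of a Trpm7 cKO library. Cct2 went the other way, with 13.67% to 16.3% in control and 7.82% to 13.63% in Trpm7 cKO libraries. So did Cct6a, with 19.42% to 22.0% in control and 12.9% to 19.41% in Trpm7 cKO libraries. For both genes the gap between the genotypes was very small. For the other 5 subunits the shares of the genotypes overlapped. The summed level of the CCT genes was 3695 to 4070 CPM in control and 2047 to 2538 CPM in Trpm7 cKO libraries. The other 2 genes of that name, Cct6b and Cct8l1, had at most 1 count in a library.

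Factors that work with CCT were listed separately (prefoldin, which hands over actin and tubulin, phosducin-like proteins and tubulin cofactors). Of the 12 tested genes of 15 listed, 5 were lower (41.7%), 1 was higher (8.33%) and 6 did not pass. Over all tested genes these shares were 24.1% and 24.6%, and the median log2 fold change of the list was -0.36. The lower genes were Txndc9, a thioredoxin-like CCT regulator (-1.48, adjusted p = 6.84e-05), Tbca, a tubulin cofactor (-1.33, adjusted p = 5.63e-06), the prefoldin subunit Pfdn2 (-1.06, adjusted p = 8.64e-06), and Pdcl and Pdcl3 (-0.60 and -0.43, adjusted p = 0.0190 and 0.0287). Another prefoldin subunit, Pfdn5, was higher (mean 86.2 CPM in control and 243 CPM in Trpm7 cKO, log2 fold change 1.43, adjusted p = 2.26e-05). Genes of a single hexamer were thus found on both sides of 0.

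The HSP family had 12 lower and 8 unpassed genes of 20 tested, with a median log2 fold change of -0.46, and 0 higher genes, also at an unadjusted p below 0.05. Both genes of the mitochondrial pair were lower. Hspe1 (chr1:55088132-55091307, plus strand), the lid of the mitochondrial folding chamber, was at 1942, 1448, 1987, 2033 and 1414 CPM in control and 521, 686, 406, 673 and 337 CPM in Trpm7 cKO libraries. The lowest control library was more than double the highest Trpm7 cKO library (log2 fold change -1.73, SE 0.188, adjusted p = 5.29e-07). Hspd1 (chr1:55077835-55088243, minus strand), the chamber itself, was at 257, 311, 223, 257 and 284 CPM in control and 159, 177, 208, 202 and 237 CPM in Trpm7 cKO libraries. Here the groups touched, since Trpm7 cKO library 5 exceeded control library 3, and the change was smaller (log2 fold change -0.46, SE 0.147, adjusted p = 0.0137). The call of Hspd1 was lost with all libraries thinned to the smallest total (-0.27, adjusted p = 0.194).

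The 2 genes share the promoter region and the HSE printed above, so their ratio was compared within each library. Hspe1 counts were 4.66 to 8.91 times those of Hspd1 in control and 1.42 to 3.89 times in Trpm7 cKO libraries, with no overlap. The mean log2 ratio went from 2.72 ± 0.42 to 1.37 ± 0.61 (SD, n = 5 each), a difference of -1.35 (p = 0.00794 in an exact two-sided permutation test, below which 5 against 5 cannot go, and 0.0159 after adjustment over 4 ratios). Of the last 500 transcript bases of Hspe1, 90% recur in other annotated genes, mainly its pseudogenes, against 7% for Hspd1. The pseudogene symbols Hspe1-ps2 and Hspe1-ps3 in the table held at most 2 counts in a library. How reads matching several places were treated is not given in the sources used here, so the count of Hspe1 is less certain than that of Hspd1. The third mitochondrial HSP, the HSP70 Hspa9, had a log2 fold change of -0.27 (SE 0.129, adjusted p = 0.0920), and without Trpm7 cKO library 4 it was -0.34 with an adjusted p of 0.0389.

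**Figure D3:**
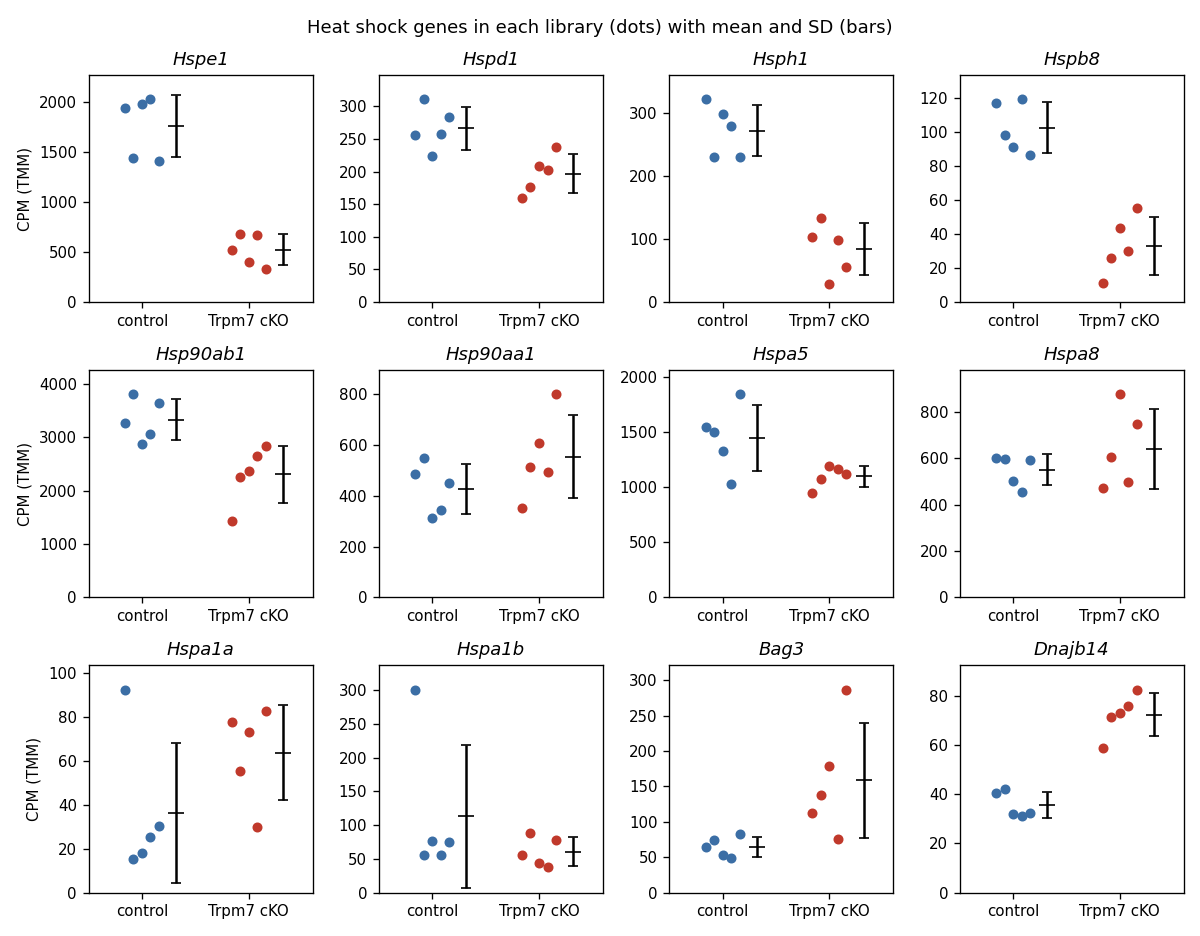
Level of 12 chaperone genes in CPM after TMM scaling, 1 dot per library, control in blue and Trpm7 cKO in red, with the mean and SD of 5 libraries as bars, each axis starting at 0. Hspe1, Hsph1, Hspb8, Hsp90ab1 and Dnajb14 are separate between genotypes, whereas control library 1 stands far above the other controls in Hspa1a and Hspa1b.

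The small HSPs, which hold unfolded proteins without using ATP, were represented by 2 tested genes, both lower. Hspb8, which works in a complex with the co-chaperone Bag3, was at 117, 98.1, 91.2, 119 and 86.8 CPM in control and 11.1, 25.8, 43.8, 29.8 and 55.2 CPM in Trpm7 cKO libraries. The groups were separate (log2 fold change -1.82, SE 0.255, adjusted p = 7.99e-06), the largest fall among the 64 tested members. Hspb1 was at 104, 84.7, 90.1, 112 and 92.6 CPM in control and 75.8, 60.7, 54.8, 53.0 and 49.7 CPM in Trpm7 cKO libraries (log2 fold change -0.69, SE 0.169, adjusted p = 0.00217). Its 3′ end shares 43.4% of 500 bases with the pseudogene Hsp25-ps1, which had 22 counts in Trpm7 cKO library 2 and 0 in the other libraries, beside 33 counts of Hspb1 in that library. Hspb1 remained lower with each library left out, adjusted p at most 0.00789.

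All 3 HSP110 genes, the large exchange factors of HSP70, were lower. Hsph1 was at 321, 229, 297, 279 and 230 CPM in control and 103, 132, 29.2, 97.8 and 55.2 CPM in Trpm7 cKO libraries. The groups were separate and Trpm7 cKO library 3 was the lowest (log2 fold change -1.59, SE 0.237, adjusted p = 2.50e-05). Hspa4l ranged from 92.6 to 125 CPM in control and from 44.1 to 62.8 CPM in Trpm7 cKO libraries (log2 fold change -1.09, SE 0.170, adjusted p = 2.85e-05). Hspa4 overlapped, with 178 to 224 CPM against 116 to 184 CPM (log2 fold change -0.40, SE 0.146, adjusted p = 0.0285), and it lost its call without control library 1 (adjusted p = 0.0704), control library 2 (0.0685) or Trpm7 cKO library 5 (0.0552), by total counts (0.124) and after thinning (0.324). A further exchange factor, Hspbp1, was lower with overlapping levels (log2 fold change -0.45, SE 0.184, adjusted p = 0.0478), a call that was kept only when Trpm7 cKO library 4 was the library left out and was lost without any of the other 9 (adjusted p = 0.0518 to 0.135). Hspbp1 was not called by DESeq2 (adjusted p = 0.0820), with RLE factors (0.0533) or by total counts (0.147) either.

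Of 5 tested cytosolic HSP70 genes 1, Hspa14, was called. Hspa14 and the J-domain protein Dnajc2 form the ribosome-associated complex, which meets new chains at the ribosome, and both were lower with separate groups. Hspa14 was at 54.7 to 76.4 CPM in control and 31.4 to 49.7 CPM in Trpm7 cKO libraries (log2 fold change -0.71, SE 0.192, adjusted p = 0.00427), and after thinning its adjusted p was 0.0506. Dnajc2 was at 171, 199, 176, 155 and 205 CPM in control and 77.6, 97.5, 54.8, 138 and 110 CPM in Trpm7 cKO libraries (log2 fold change -0.90, SE 0.187, adjusted p = 5.14e-04). The constitutive Hspa8 was at 603, 596, 503, 456 and 595 CPM in control and 473, 605, 877, 499 and 750 CPM in Trpm7 cKO libraries. These groups overlapped (log2 fold change 0.20, SE 0.167, adjusted p = 0.328), its sign turned under scaling on MuSC genes and without the filter on low counts, it was called higher after thinning (0.42, adjusted p = 0.0451), and 86.2% of the last 500 bases of its transcript recur in other genes, mainly pseudogenes.

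The stress-inducible pair Hspa1a and Hspa1b, neighbours on chromosome 17 that encode almost the same protein, was uneven between control libraries. Hspa1a was at 92.5, 15.5, 18.2, 25.1 and 30.1 CPM in control and 77.6, 55.2, 73.1, 29.8 and 82.8 CPM in Trpm7 cKO libraries. Control library 1 was above all others, and the difference did not pass (log2 fold change 0.72, SE 0.510, adjusted p = 0.273). Without that library it was 1.45 with an adjusted p of 6.73e-04. Hspa1b was at 301, 55.8, 76.1, 56.2 and 75.2 CPM in control and 55.4, 88.3, 43.8, 38.1 and 77.3 CPM in Trpm7 cKO libraries, highest in the same control library (log2 fold change -0.93, SE 0.602, adjusted p = 0.239). Without it the value was -0.14.

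Within each library the 2 genes were counted in different proportions. Hspa1b counts were 2.24 to 4.18 times those of Hspa1a in the 5 control libraries, library 1 included at 3.26, and 0.6 to 1.6 times in the 5 Trpm7 cKO libraries, with no overlap. This ratio was picked after its values were seen and carries no test. The counts behind it were small in Trpm7 cKO libraries, at 15 to 42 for Hspa1a and 12 to 48 for Hspa1b. The last 500 transcript bases of Hspa1a share no match of 31 bases with another gene and those of Hspa1b share 8.8%, none of them with Hspa1a.

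The cytosolic HSP90 genes differed from each other. Hsp90ab1, the constitutive form, was at 3272, 3800, 2877.5, 3053 and 3630 CPM in control and 1438, 2247, 2360, 2648 and 2831 CPM in Trpm7 cKO libraries. The groups were separate by a small margin, with Trpm7 cKO library 1 the lowest (log2 fold change -0.53, SE 0.170, adjusted p = 0.0138). After thinning, Hsp90ab1 was at -0.42 and no longer passed (adjusted p = 0.0621). Hsp90aa1, the inducible form, was at 484, 550, 314, 342 and 451 CPM in control and 353, 515, 610, 495 and 800 CPM in Trpm7 cKO libraries (log2 fold change 0.35, SE 0.195, adjusted p = 0.147). These overlapped, and without Trpm7 cKO library 1 the value was 0.46 with an adjusted p of 0.0456, while scaling on MuSC genes brought it to -0.017. Their ratio, which does not depend on scaling between libraries, was separate between the genotypes. The mean log2 ratio of Hsp90aa1 to Hsp90ab1 counts was -2.98 ± 0.20 in control and -2.07 ± 0.22 in Trpm7 cKO (SD, n = 5 each), a shift of 0.91 or 1.88-fold (p = 0.00794 in the same exact test, again its lowest value, and adjusted p = 0.0159). Trpm7 cKO libraries 3 and 5 lay farthest from the controls (-1.95 and -1.82), and the same held for the other ratios tested. These libraries had the fewest counts (292065 and 205986), and depth and genotype cannot be told apart in the ratios either. Of the last 500 bases, 40.6% in Hsp90ab1 and 12.8% in Hsp90aa1 recur in other genes.

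**Figure D4:**
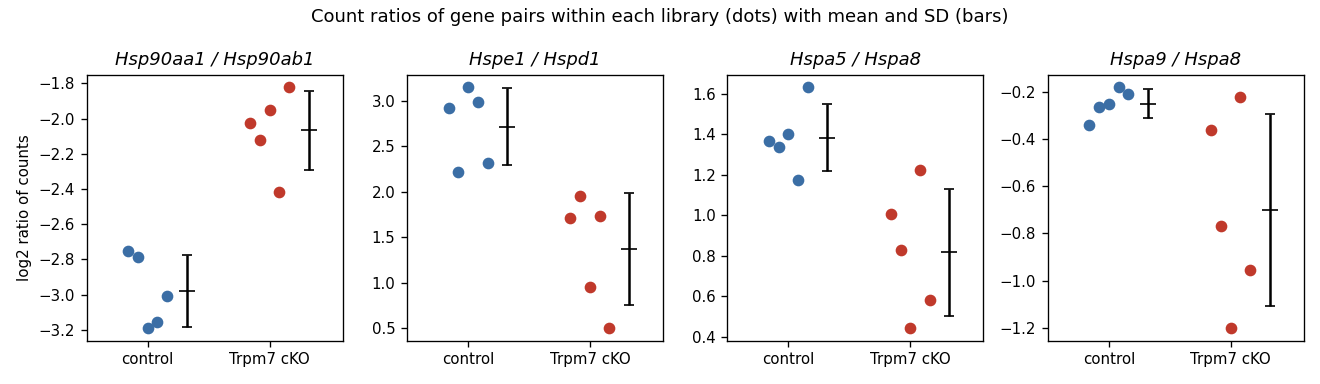
Log2 ratio of the counts of 4 gene pairs within each library, 1 dot per library, control in blue and Trpm7 cKO in red, with the mean and SD of 5 libraries as bars. The genotypes are separate for Hsp90aa1 over Hsp90ab1 and for Hspe1 over Hspd1, and they overlap for Hspa5 and Hspa9 over Hspa8.

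Of the 13 tested HSP and DNAJ genes placed in the ER, 1 was higher (Dnajb14), 1 was lower (Hspa5) and 11 did not pass, beside 24.6% and 24.1% of all tested genes, with a median log2 fold change of 0.18. Hspa5 (BiP), the HSP70 of the ER lumen, was at 1553, 1506, 1329, 1028 and 1846 CPM in control and 952, 1075, 1191, 1165 and 1126 CPM in Trpm7 cKO libraries. Control library 4 lay among the Trpm7 cKO libraries (log2 fold change -0.40, SE 0.153, adjusted p = 0.0363), and the call was lost on leaving out control library 1 (adjusted p = 0.0758), 2 (0.0674) or 5 (0.137), or Trpm7 cKO library 1 (0.0689) or 2 (0.0545), by total counts (0.100) and after thinning (0.167). Set against the cytosolic Hspa8, the mean log2 ratio of Hspa5 was 1.38 ± 0.17 in control and 0.82 ± 0.31 in Trpm7 cKO (SD, n = 5 each), lower by 1.48-fold with overlap (exact permutation test, two-sided, p = 0.0159; adjusted p = 0.0212). The same ratio for Hspa9 went from -0.25 ± 0.06 to -0.70 ± 0.41, lower by 1.37-fold with overlap (exact permutation test, two-sided, p = 0.0476; adjusted p = 0.0476), and it did not pass when any 1 control library was left out.

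The other ER members did not pass. Hsp90b1 (GRP94), with its ERSE pair, had 378 to 698 CPM in control and 464 to 693 CPM in Trpm7 cKO libraries (log2 fold change 0.18, SE 0.172, adjusted p = 0.409). Dnajc3 (P58IPK), the third gene with an ERSE, was at 97.5, 120, 120, 108 and 118 CPM in control and 133, 132, 139, 121 and 132 CPM in Trpm7 cKO libraries. Its groups were separate without passing the test (log2 fold change 0.22, SE 0.137, adjusted p = 0.202). Of the J-domain partners of BiP, Dnajb9 (log2 fold change 0.15, adjusted p = 0.516), Dnajb11 (-0.27, adjusted p = 0.265) and the disulfide reductase Dnajc10 (-0.35, adjusted p = 0.109) did not pass either. On the list of other ER chaperones and unfolded protein response genes, 3 of 16 tested genes (18 listed) were higher, 3 were lower and 10 did not pass. Each way this was 18.8%, where 24.6% of all tested genes were higher and 24.1% were lower. The median log2 fold change of the list was -0.08. The higher genes were Eif2ak3, the ER stress kinase PERK (1.77, adjusted p = 9.50e-06), Ppp1r15a, the phosphatase subunit GADD34 (1.65, adjusted p = 2.24e-07), and Herpud1 (0.63, adjusted p = 0.0434). The lower genes were the secreted protein Manf (-1.54, adjusted p = 3.97e-08), Creld2 (-0.69, adjusted p = 0.0113) and Pdia6 (-0.49, adjusted p = 0.0164).

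The DNAJ family had 2 higher, 4 lower and 22 unpassed genes of 28 tested, with a median log2 fold change of -0.19. By class, 2 of 3 tested DNAJA genes were lower, 2 of 7 DNAJB genes were higher and 0 were lower, and 2 of 18 DNAJC genes were lower and 0 were higher, where 24.1% of all tested genes were lower and 24.6% were higher. Differences between the classes were not tested. Dnaja2, a general partner of cytosolic HSP70, was at 538, 420, 506, 540 and 423 CPM in control and 259, 215, 223, 232 and 221 CPM in Trpm7 cKO libraries. The groups were far apart (log2 fold change -1.07, SE 0.136, adjusted p = 2.74e-06). Its relative Dnaja1 ranged from 229 to 263 CPM against 182 to 254 CPM and did not pass (log2 fold change -0.28, SE 0.136, adjusted p = 0.0966). Without Trpm7 cKO library 5 the adjusted p of Dnaja1 was 0.0399. Dnaja3, the mitochondrial member of the class, was at 67.1 to 107 CPM in control and 25.6 to 62.8 CPM in Trpm7 cKO libraries (log2 fold change -0.70, SE 0.213, adjusted p = 0.0101), a call lost after thinning (-0.59, adjusted p = 0.0699). The fourth lower gene besides Dnajc2 was Dnajc8, found with splicing factors in the nucleus, at 232 to 279 against 149 to 209 CPM (log2 fold change -0.47, SE 0.141, adjusted p = 0.00980). Dnajc8 lost its call by total counts (adjusted p = 0.0542) and after thinning (0.0967).

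The higher DNAJ genes were both of class B. Dnajb14, anchored in the ER membrane with its J-domain towards the cytosol, was at 40.8, 42.3, 32.2, 31.1 and 32.4 CPM in control and 59.1, 71.8, 73.1, 76.2 and 82.8 CPM in Trpm7 cKO libraries. The groups were separate (log2 fold change 0.99, SE 0.182, adjusted p = 1.51e-04). Dnajb6, which keeps aggregating proteins soluble and carries an HSE, was at 75.6, 110, 62.2, 66.3 and 70.6 CPM in control and 85.0, 97.5, 153, 99.4 and 155 CPM in Trpm7 cKO libraries. The groups overlapped through control library 2 (log2 fold change 0.54, SE 0.202, adjusted p = 0.0325). The call of Dnajb6 was lost without control library 1, 3, 4 or 5 (adjusted p = 0.0563, 0.0859, 0.0691 and 0.0533) or Trpm7 cKO library 3 or 5 (0.104 and 0.0732), and with scaling on MuSC genes the log2 fold change was 0.18. Dnajb1, the J-domain partner of the heat shock response, was at 59.9 to 95.4 CPM in control and 56.3 to 103 CPM in Trpm7 cKO libraries (log2 fold change 0.08, SE 0.189, adjusted p = 0.754). In mitochondria Dnajc19 of the import motor had a log2 fold change of -0.26 (SE 0.200, adjusted p = 0.300). The other 15 tested DNAJ genes did not pass, with log2 fold changes from -0.47 to 0.57.

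Scaling on the MuSC identity genes moved the median over all genes to -0.39 (log2), and under it the DNAJ family had 13 lower and 1 higher gene, the HSP family 13 lower and 0 higher, the CCT family 7 lower and the HSF and BAG genes 5 lower and 2 higher. Over all genes that scaling gave 2950 lower and 1090 higher calls, in place of 1866 and 1908. The list used for that scaling was itself mostly higher in Trpm7 cKO, at 4035 to 6488 CPM against 3768 to 4370 CPM in control. Scaling on it therefore shifts all genes downward, and the lower calls under it carry that shift. By total counts alone the median of all genes was 0.10 with 1504 lower and 2164 higher calls, and the DNAJ family had 3 lower and 2 higher genes, the HSP family 9 lower and the CCT family 6 lower.

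The mitochondrial members of all families together numbered 8 tested genes, of which 3 were lower (Hspe1, Dnaja3 and Hspd1) and 0 were higher. The lower share was 37.5%, where 24.1% of all tested genes were lower and 24.6% were higher. On the list of other mitochondrial quality control genes 2 of 10 were lower (20%) and 8 did not pass. The share lower on this list was not above that of all tested genes, and its median log2 fold change was -0.25. The lower genes were Grpel1, the exchange factor of Hspa9 (mean 82.1 CPM in control and 32.4 CPM in Trpm7 cKO, log2 fold change -1.32, adjusted p = 5.25e-05), and the inner membrane protease subunit Afg3l2 (-1.36, adjusted p = 3.54e-05).

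Among HSF and BAG genes, the heat shock factors did not pass: Hsf1 had a log2 fold change of -0.19 (SE 0.201, adjusted p = 0.468) and Hsf2 of -0.22 (SE 0.233, adjusted p = 0.452). The BAG genes split. Bag3, the partner of Hspb8 in the removal of damaged muscle proteins, was at 64.6, 74.3, 52.6, 49.2 and 82.2 CPM in control and 113, 138, 179, 76.2 and 287 CPM in Trpm7 cKO libraries. All but Trpm7 cKO library 4 lay above the controls (log2 fold change 1.18, SE 0.274, adjusted p = 0.00207), so that Bag3 rose while Hspb8 fell. Bag6, which handles proteins that fail to reach the ER, was at 12.9, 28.9, 13.9, 24.1 and 23.2 CPM in control and 40.7, 27.6, 65.8, 41.4 and 82.8 CPM in Trpm7 cKO libraries (log2 fold change 1.17, SE 0.295, adjusted p = 0.00275). It was thinly counted, at 13 to 28 counts in control and 15 to 25 in Trpm7 cKO libraries. After thinning to the smallest total Bag6 did not pass the filter on low counts and was not tested. With the leukocyte covariate its log2 fold change was -0.23.

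Bag4 and Bag2, the latter an inhibitor of the ubiquitin ligase CHIP, were lower. Bag4 ranged from 26.8 to 50.4 CPM in control and from 9.24 to 27.6 CPM in Trpm7 cKO libraries (log2 fold change -1.12, SE 0.288, adjusted p = 0.00298), and Bag2 from 17.9 to 29.1 CPM and from 0 to 22.1 CPM (log2 fold change -1.18, SE 0.383, adjusted p = 0.0149). Without Trpm7 cKO library 2, the highest of its group, Bag2 was at -1.81. Both were thinly counted, and with all libraries thinned to the smallest total neither passed the filter on low counts, so they were not tested at that depth. Bag1 (0.33, SE 0.226, adjusted p = 0.244) and Bag5 (-0.41, SE 0.235, adjusted p = 0.157) did not pass. No HSF or BAG gene had separate groups.

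Co-chaperones of HSP90 and HSP70 outside these families were counted from a list of 20, of which 17 were tested. Of these 7 were lower (41.2%), 1 was higher (5.88%) and 9 did not pass, where 24.1% and 24.6% of all tested genes were lower and higher. The median log2 fold change of the list was -0.23. The 7 include Cryab, a small HSP that the list holds although it is no co-chaperone. The lower genes included the immunophilin Fkbp4 (mean 396 CPM in control and 140 CPM in Trpm7 cKO, log2 fold change -1.44, adjusted p = 2.64e-06), Cryab, abundant in muscle (-1.25, adjusted p = 9.30e-06), Chordc1 (-0.91, adjusted p = 9.17e-05), the HSP70 to HSP90 adaptor Stip1 (-0.77, adjusted p = 2.68e-04) and the kinase adaptor Cdc37 (-0.63, adjusted p = 0.00191), with Sugt1 and Ppid at -0.41 and -0.38. The higher gene was Fkbp5, another immunophilin and a glucocorticoid target (mean 23.3 CPM in control and 50.7 CPM in Trpm7 cKO, log2 fold change 1.03, adjusted p = 0.00275). The 2 immunophilins that compete on HSP90 were thus on opposite sides of 0.

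The members in which an HSE was found can be set side by side. Hspe1, Hsph1 and Hspd1 were lower and Dnajb6 was higher. The 12 lower HSP genes also include Hspb11, a member by symbol that serves in intraflagellar transport (log2 fold change -0.83, SE 0.254, adjusted p = 0.0105). The HSP genes not yet described, Hspa12a and Hspa13, had log2 fold changes of 0.33 and 0.11 (adjusted p = 0.349 and 0.680). Summed over each family, the level per library was 9096 to 10589 CPM in control and 5425 to 7847 CPM in Trpm7 cKO for HSP genes, and 2373 to 2538 CPM and 1965 to 2163 CPM for DNAJ genes. For HSF and BAG genes it overlapped, at 343 to 370 CPM and 313 to 635 CPM.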

How the data were processed

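The authors read barcodes and UMIs using UMI-tools 1.1.4, trimmed reads with Trim Galore 0.6.10, aligned them to GRCm38 with HISAT2 2.2.1, assigned them to genes with featureCounts 2.0.6, removed UMI duplicates and deposited whole-number counts per gene without normalization. The annotation release, the strand setting and the treatment of multiply mapped reads are not given in the sources used here. The table held 24620 entries under 24608 symbols, and of a symbol listed again the entry with the larger total was kept.

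Counts were tested with edgeR 4.0.16 in R 4.3.3 (filterByExpr with a minimum count of 10 and a minimum total of 15, TMM, robust quasi-likelihood F test, Benjamini-Hochberg over 7753 genes), with genotype as the only term. CPM use TMM library sizes. Ratios of counts used a pseudocount of 0.5 and exact permutation over 252 splits, two-sided. The fits were tested on simulated data. Depth is given by library totals, from 205986 to 1097709 counts, and limits precision most in Trpm7 cKO. The labels name separate samples without stating separate animals, so p-values measure the spread between these samples, which may be technical. Pairs of replicates differed by more than counting noise (chi-square per degree of freedom 1.40 to 6.24).

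Members and lists were chosen with earlier results of these data known. The genes named are all tested CCT, HSF and BAG genes, fixed HSP and DNAJ genes, the called members of these 2 families at either end of the log2 fold change (3 each), and list members. The remaining called members, Hspa4l, Hspa14 and Hspb11, and Hspa12a and Hspa13 were named after their values were seen. Promoter windows came from RefSeq (GRCm38.p6), and gene positions and last transcript bases (matches of 31 bases) from GENCODE vM21 on GRCm38. The alternatives were DESeq2 1.42.0, RLE factors, total counts, scaling on MuSC identity genes, no filter, thinning to the smallest total, the replicate number as a block, a leukocyte covariate, each library left out, and the study's fold change threshold.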

Additional observations from a re-analysis of the deposited data

Results flagged for a closer look

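In 98 groups of 5 libraries (49 named genes in both genotypes), a single library stood apart from the other libraries of its group in 4, by Dixon's test, and chance alone gives about 4.9. Control library 1 had 92.5 CPM of Hspa1a, where the next control had 30.1 CPM, and 301.3 CPM of Hspa1b, where the next had 76.1 CPM. Both flags fall on the same library and on neighbouring stress-inducible genes, and the other named genes of that library were not set apart. Control library 2 had 110.5 CPM of Dnajb6, where the next had 75.6 CPM. Control library 5 had 33.6 CPM of Bag5, where the other controls had 49.7 to 55.2 CPM. No explanation of these values was tested.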

How the results depend on the processing

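Of the 28 called members, the number that kept the call in the same direction was 27 by DESeq2, 27 with RLE factors, 24 by total counts, 27 with MuSC identity scaling, 27 without a filter, 17 of 24 tested after thinning, and 0 with the leukocyte covariate. Under that covariate 23 of the 28 kept their direction and 10 of them had at least as large a fold, among them Hspb8 (-2.16, adjusted p = 0.0818), Dnajc2 (-1.58, 0.0514), Cct8 (-1.12, 0.0648) and Hsp90ab1 (-1.10, 0.129). The 10 were 6 of 12 HSP, 2 of 6 DNAJ, 2 of 6 CCT and 0 of 4 HSF and BAG calls. Smaller folds included Hsph1 (-0.52 in place of -1.59), Hspe1 (-1.01 in place of -1.73), Hspb1 (-0.26 in place of -0.69) and Bag4 (-0.29 in place of -1.12). The called members Hspb11, Dnaja3, Dnajb6, Bag2 and Bag6 turned in direction. With each library left out, 24 of the 28 kept the call throughout (all but Hspa4, Hspa5, Hspbp1 and Dnajb6). Thinning left 18 HSP, 19 DNAJ, 8 CCT and 3 HSF and BAG genes to test (Bag1, Bag3 and Bag5). The cause of the changes below was not tested. HSP genes: 1 higher after thinning (Hspa8) and with the replicate block (Hspa1a), and 0 to 1 with a library left out (Hspa1a without control library 1, Hsp90aa1 without Trpm7 cKO library 1); 6 lower after thinning, 0 with the leukocyte covariate and 3 past the fold threshold of 1.5; 9 to 13 lower with a library left out. DNAJ genes: 1 higher with MuSC identity scaling and without a filter, 0 with the covariate and past 1.5, and 1 to 3 with a library left out; 13 lower with MuSC identity scaling, 8 without a filter, 2 after thinning, 0 with the covariate and past 1.5, and 4 to 6 with a library left out. CCT genes: 0 lower with the covariate and past 1.5, and 6 to 7 with a library left out. HSF and BAG genes: 1 higher after thinning, 0 with the covariate and past 1.5; 5 lower with MuSC identity scaling, 0 after thinning (Bag2 and Bag4 were not tested), with the covariate and past 1.5; 2 each way with any library left out. The ratio of Hspa9 to Hspa8 was -0.45 after thinning (adjusted p = 0.0952) and -0.57 to -0.33 with a library left out.

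Directions of single genes turned with the leukocyte covariate for Hspa1b (0.18), Hspb11 (0.47), Hspa13 (-0.47), Hspa12a (-0.28), Hspa8 (-0.031), Hsp90aa1 (-0.33), Hsp90b1 (-0.46), Dnaja3 (0.11), Dnajb6 (-0.11), Dnajc19 (0.47), Cct5 (0.082), Bag2 (0.90), Bag5 (0.17), Hsf2 (0.36), Hsf1 (0.36), Bag1 (-1.23) and Bag6 (-0.23). They turned with MuSC identity scaling for Hspa13 (-0.26), Hspa12a (-0.055), Hspa8 (-0.18), Hsp90aa1 (-0.017), Hsp90b1 (-0.17), Dnajb1 (-0.33), Dnajb9 (-0.24), Dnajc3 (-0.16) and Bag1 (-0.0093), and without a filter for Hspa13 (-0.091), Hspa8 (-0.018), Hsp90b1 (-0.030), Dnajb1 (-0.12) and Dnajb9 (-0.049). Cct5 was 0.056 by total counts and 0.048 after thinning, and Dnajb11 was 0.11 after thinning. With a library left out, Dnajb1 ranged from -0.035 (without Trpm7 cKO 2) to 0.21 and was -0.0043 without Trpm7 cKO 1, Dnajb9 ranged from -0.014 (without Trpm7 cKO 1) to 0.23, and Cct5 ranged from -0.096 to 0.0056 (without control 1) and was 0.0011 without Trpm7 cKO 4. None of these genes passed the test under the alternative named.

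Replicate numbers are shared by the genotypes, and same-numbered libraries deviated together with correlations of -0.12 to 0.18, so they were not treated as pairs. With the replicate block 26 of the 28 calls were kept (Hspa5 and Hspbp1 were lost, and Hspa1a was called at 0.90, adjusted p = 0.0253), and the best match of a library was its own number for 1 of 5. In the sign flips of 5 differences, which cannot go below 0.0625, the ratios had the same differences with adjusted p of 0.0833 for Hsp90aa1 to Hsp90ab1 (0.91), 0.125 for Hspa5 to Hspa8 (-0.57), 0.0833 for Hspe1 to Hspd1 (-1.35) and 0.0833 for Hspa9 to Hspa8 (-0.45). Depth limits the Trpm7 cKO libraries most, where Bag2 ranged down to 0 counts.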
